A study of Rattus norvegicus with 4 samples.

Results

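The TGF-beta genes described here are the 3 ligands Tgfb1, Tgfb2 and Tgfb3, the receptors Tgfbr1, Tgfbr2 and Tgfbr3, the latent binding proteins Ltbp1 and Ltbp2, the TGF-beta-induced matrix protein Tgfbi and the nuclear repressor Tgif1. They were chosen by name, and probe sets (groups of short oligonucleotides on the array) that the annotation gives to 1 gene alone were averaged for that gene. Of the 10 genes, 9 had such a probe set, with 12 probe sets in all, out of 14217 genes and 31042 probe sets. Tgfbr2 had none and was not analysed here. RNA came from L6, a rat skeletal myoblast line of the Wistar strain, in 4 conditions with 1 Affymetrix array each: L6-HGF sheet, L6-WT sheet, L6-HGF monolayer and L6-WT monolayer. L6-HGF cells express human hgf (hHGF) constitutively from a retroviral pBabepuro vector and were selected with puromycin, and L6-WT is the wild-type line without either. No empty-vector line is described, and whether L6-HGF is 1 clone or a pool was not stated, so that hHGF, vector and selection cannot be told apart. Sheets were made by plating myoblasts on thermoreactive dishes, and the other cultures are labelled monolayers.

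TGF-beta ligands are secreted in a latent form, folded inside their own propeptide, which LTBP proteins tether to the extracellular matrix. Once released, a ligand binds the type II receptor, which recruits and phosphorylates the type I receptor Tgfbr1, and this in turn phosphorylates Smad2 and Smad3. In skeletal myoblasts TGF-beta is known as an inhibitor of differentiation, and in fibroblasts as an inducer of matrix genes.

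The sequence before the transcription start is shown for the 3 ligand genes and Ltbp1. They were picked because the values of Tgfb1, Tgfb3 and Ltbp1 lay lower in sheets of both cell lines and those of Tgfb2 did not. For Tgfb1 and Ltbp1 in L6-WT, this difference was within the range of the bacterial control probe sets described below. Each run is 250 bases, written 5′ to 3′ from the RefSeq annotation of GRCr8, and ends at the base before the start. Capitals mark matches on either strand to the SMAD element CAGAC, the hypoxia core ACGTG, the AP-1 element TGANTCA and the cyclic AMP element TGACGTCA, overlaps included.
Tgfb3, chr6:111456947-111457196, minus strand: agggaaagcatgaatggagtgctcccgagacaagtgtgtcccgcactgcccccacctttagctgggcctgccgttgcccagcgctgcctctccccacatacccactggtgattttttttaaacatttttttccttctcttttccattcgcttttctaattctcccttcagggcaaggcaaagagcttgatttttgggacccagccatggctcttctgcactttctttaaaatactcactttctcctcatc
Tgfb1, chr1:90324062-90324311, plus strand: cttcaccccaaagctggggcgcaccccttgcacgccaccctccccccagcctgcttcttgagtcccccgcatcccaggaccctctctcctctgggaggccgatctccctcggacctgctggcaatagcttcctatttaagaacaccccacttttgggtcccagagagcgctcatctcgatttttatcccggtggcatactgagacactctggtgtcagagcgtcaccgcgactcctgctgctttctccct
Ltbp1, chr6:26177302-26177551, minus strand: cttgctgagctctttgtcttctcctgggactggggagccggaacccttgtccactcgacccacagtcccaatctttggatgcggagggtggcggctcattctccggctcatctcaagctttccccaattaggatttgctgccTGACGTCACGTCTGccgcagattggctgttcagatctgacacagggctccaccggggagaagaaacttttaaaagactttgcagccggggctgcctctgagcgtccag
Tgfb2, chr13:100792686-100792935, minus strand: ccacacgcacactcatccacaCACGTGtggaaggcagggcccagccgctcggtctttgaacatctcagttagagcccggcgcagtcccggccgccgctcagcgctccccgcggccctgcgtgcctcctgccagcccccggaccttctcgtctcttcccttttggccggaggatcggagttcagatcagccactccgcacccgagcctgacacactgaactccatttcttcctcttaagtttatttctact
The windows of Tgfb3 and Tgfb1 held none of the 4 motifs. That of Ltbp1 held a cyclic AMP element at -108 from the start, overlapped by a hypoxia core at -102, itself overlapped by a SMAD element at -99, all within one run of capitals. In Tgfb2 the hypoxia core was read on both strands of a single palindrome, at -229 and -228. Of 33469 rat windows of this length, 42.9% held the SMAD element, 16.6% the hypoxia core, 6.34% the AP-1 element and 1.59% the cyclic AMP element. The windows of Tgfb3 and Tgfb2 lie inside the span that the same annotation gives to the gene, and that of Ltbp1 partly so. A GC content of 48.8% set the Tgfb3 window apart from those of Tgfb1 (60.0%), Ltbp1 (56.8%) and Tgfb2 (61.6%), against a median of 51.2% over all windows. These matches are letters in a window, and no binding was measured.

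The deposited values are log2 expression with each probe set centred on the median of its 4 arrays. A value of 0 is thus the middle of the 4 arrays for that probe set, the 2 middle arrays of a probe set always mirror each other about 0, and neither the level of a gene nor the order of levels between genes can be read. The presence of myoblast markers on the arrays could not be checked for the same reason. Every comparison below is a log2 difference between 2 arrays, and no error over replicates exists. As a technical scale, the SD of the log2 difference over 45 bacterial control probe sets was 0.22 between the 2 sheets, 0.12 between the 2 monolayers, 0.16 between sheet and monolayer of L6-HGF and 0.18 between sheet and monolayer of L6-WT. This SD leaves out a common shift of the controls, whose median difference was 0.05, 0.10, 0.17 and 0.23 in the same order. The largest single control difference was 0.51, 0.35, 0.34 and 0.49 in size. The rat Hgf probe set, whose response to the human transgene is not known, had a log2 difference (L6-HGF minus L6-WT, called the hHGF effect below) of 0.50 in sheets and 0.38 in monolayers.

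Tgfb3, a ligand known in mice for its part in palate fusion, differed most among the 9 genes. Its centred log2 value was -0.15 in the L6-HGF sheet and -0.97 in the L6-WT sheet, and 0.93 in the L6-HGF monolayer and 0.15 in the L6-WT monolayer. Both sheets lay below both monolayers, and within each format the L6-HGF array lay above the L6-WT array. Tgfb3 was 2.10-fold lower in the sheet than in the monolayer of L6-HGF, a log2 difference of -1.07, and 2.16-fold lower in that of L6-WT, a log2 difference of -1.11. With hHGF it was 1.77-fold higher among sheets (log2 difference 0.82) and 1.72-fold higher among monolayers (0.78). The hHGF effect thus differed by 0.04 (log2) between the formats, against an SD of 0.19 for the same quantity over the bacterial controls. The transcript of Tgfb3 was read by 1 probe set. In RNA from whole cultures, fewer cells expressing a gene and less of its RNA per cell cannot be told apart.

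Past 2-fold in the direction of Tgfb3, lower in sheets, were 2.57% of all genes in L6-HGF and 0.492% in L6-WT. In both cell lines at once, 42 of 14217 genes, or 0.295%, were lower by more than 2-fold. The 2 sheet comparisons share no array. A larger difference than that of Tgfb3, in either direction, was seen for 3.23% of genes between the formats of L6-HGF and 0.872% between those of L6-WT. For the hHGF effect this share was 2.38% in sheets and 1.13% in monolayers.

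Tgfb2, a ligand needed in mice for heart development, followed another order of the arrays. Its mean over 2 probe sets was 0.19 in the L6-HGF sheet and 0.07 in the L6-WT sheet, and -0.46 in the L6-HGF monolayer and -0.07 in the L6-WT monolayer. The L6-HGF monolayer lay apart from the other 3 arrays, on the low side. In L6-HGF, Tgfb2 was 1.57-fold higher in the sheet than in the monolayer (log2 difference 0.65), whereas in L6-WT the log2 difference was 0.14, below the SD of the controls. The hHGF effect was 0.12 in sheets and -0.39 in monolayers. The probe sets gave 0.69 and 0.60 for the sheet difference in L6-HGF, and 0.19 and 0.05 in sheets and -0.36 and -0.42 in monolayers for the hHGF effect. The 2 probe sets are of the type shared between transcripts of a gene.

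Tgfb1, the most widely studied ligand of the family and an inducer of fibrosis, varied least of the 3. It had -0.33 in the L6-HGF sheet and -0.10 in the L6-WT sheet, and 0.13 in the L6-HGF monolayer and 0.10 in the L6-WT monolayer. Both sheets lay below both monolayers, as for Tgfb3, but within a span of 0.46 (log2) over the 4 arrays, against 1.89 for Tgfb3 and 0.65 for Tgfb2. The log2 difference between sheet and monolayer was -0.46 in L6-HGF and -0.21 in L6-WT. In L6-WT it was close to the control SD of 0.18, and 46.0% of genes had a larger difference. The hHGF effect on Tgfb1 was -0.23 in sheets, about the SD of the controls, and 0.02 in monolayers.

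**Figure D1:**
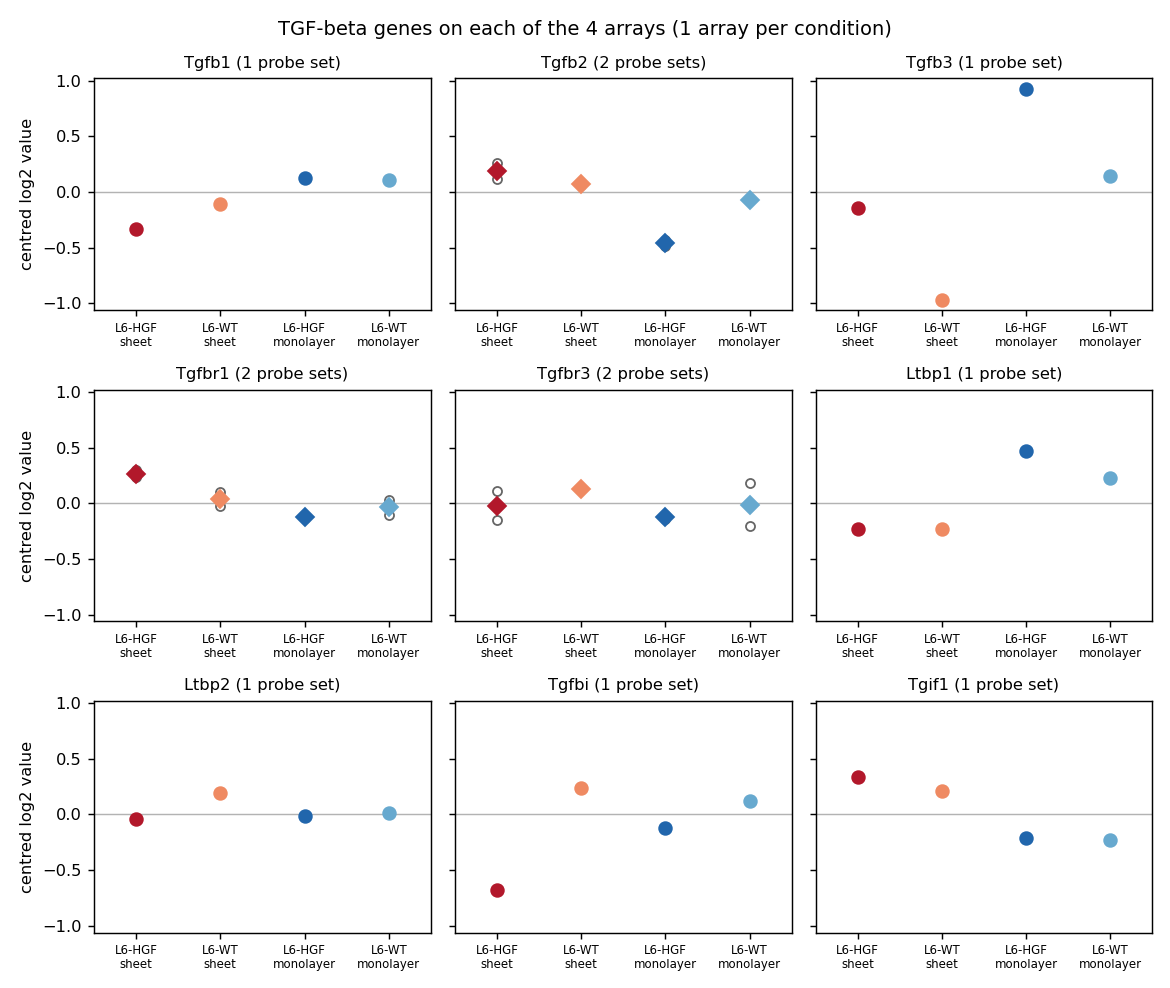
Centred log2 value (vertical axis) of 9 TGF-beta genes on each of the 4 arrays, L6-HGF sheet, L6-WT sheet, L6-HGF monolayer and L6-WT monolayer, with diamonds for the mean of 2 probe sets, open circles for each of these, filled circles for genes with 1 probe set and no error bars, since each condition has 1 array. Tgfb3 spans 1.89 (log2) with both sheets below both monolayers, and the L6-HGF sheet lies lowest for Tgfbi, at -0.68.

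Set against each other within the same pair of arrays, Tgfb3 and Tgfb2 parted most between sheet and monolayer of L6-HGF, where Tgfb3 minus Tgfb2 was -1.72 on the log2 scale, Tgfb3 minus Tgfb1 -0.61 and Tgfb2 minus Tgfb1 1.11. In L6-WT the same gaps were -1.25, -0.90 and 0.35. For the hHGF effect, Tgfb3 minus Tgfb2 was 0.70 in sheets and 1.17 in monolayers, and Tgfb3 minus Tgfb1 was 1.05 in sheets and 0.76 in monolayers. Tgfb2 minus Tgfb1 was 0.35 for the hHGF effect in sheets and -0.41 in monolayers. In sheets the effect on Tgfb2, 0.12, was below the control SD of 0.22, and that on Tgfb1, -0.23, was about as large. A turn in the order of these 2 ligands with the format thus cannot be read. These are gaps between log2 differences and do not give the ratio of the isoforms in a culture.

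**Figure D2:**
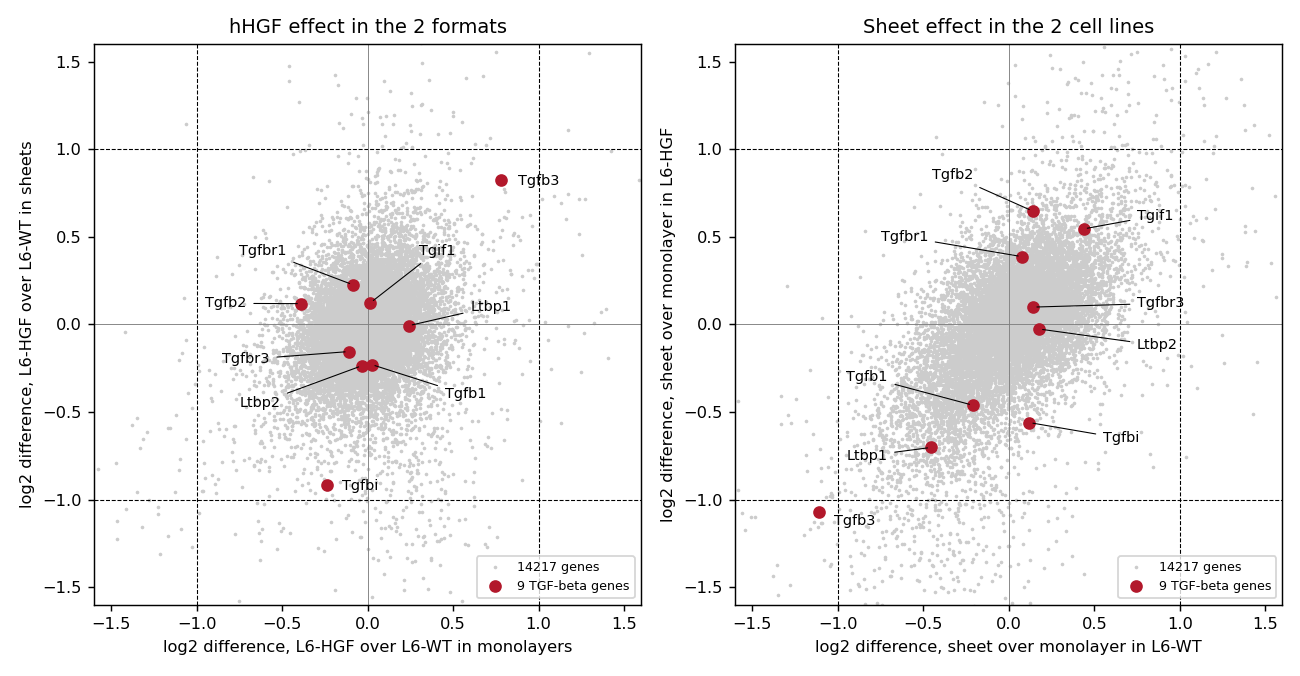
The hHGF effect (L6-HGF minus L6-WT, log2) in monolayers (horizontal) and sheets (vertical) on the left, and the log2 difference of sheet minus monolayer in L6-WT (horizontal) and L6-HGF (vertical) on the right, for 14217 genes in grey and 9 TGF-beta genes in red, with dashed lines at 2-fold. Tgfb3 lies at 0.78 and 0.82 on the left and at -1.11 and -1.07 on the right, and 41 and 171 genes fall outside the axes, which end at 1.6.

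Genes whose 4 values were most like those of a ligand were found by the root mean square difference over the 4 arrays, a measure of likeness and not a test. For Tgfb3 the nearest genes were Tm7sf2, Acat2 and Sc5d, at 0.15, 0.17 and 0.20 (log2). Tm7sf2 had -0.08 in the L6-HGF sheet and -0.69 in the L6-WT sheet, and 0.98 in the L6-HGF monolayer and 0.08 in the L6-WT monolayer. All 3 shared the order of the arrays seen for Tgfb3, and were closer to 0 than Tgfb3 in the L6-WT sheet. Besides these 3, no gene lay within 0.2 of Tgfb3. For Tgfb2 the nearest were Nccrp1, Npr1 and Hoxd8, at 0.03, 0.04 and 0.04. Because the values of Tgfb2 are themselves small, such a distance also admits nearly flat genes, and 2399 of 14216 genes lay within 0.2 of it. Tgfb1 spanned less than 0.5 and was not matched.

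**Figure D3:**
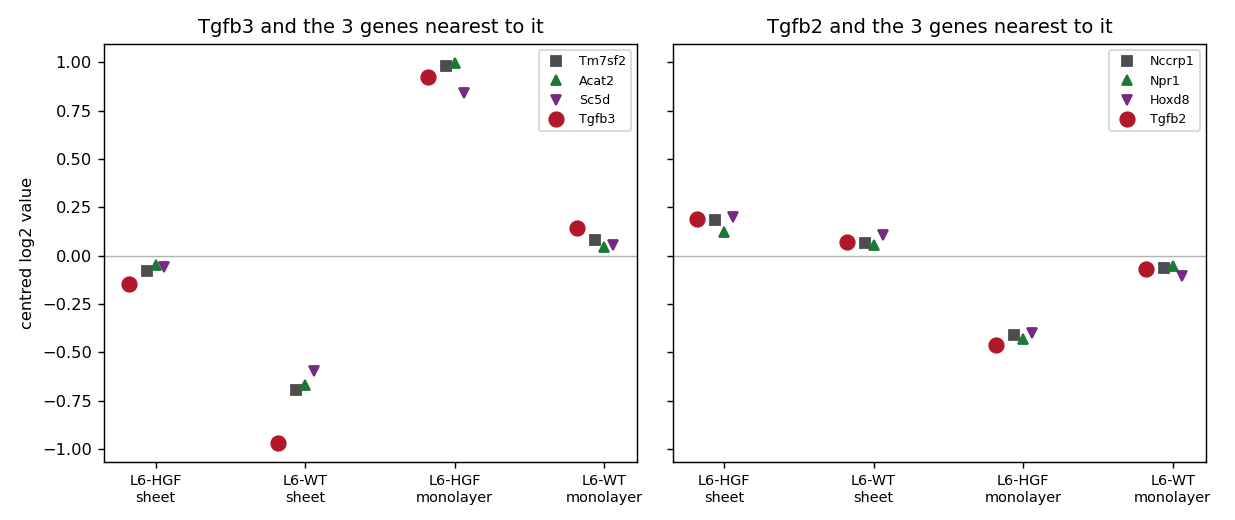
Centred log2 value (vertical axis) on the 4 arrays, L6-HGF sheet, L6-WT sheet, L6-HGF monolayer and L6-WT monolayer, for Tgfb3 and its 3 nearest genes on the left and Tgfb2 and its 3 nearest genes on the right, with points set side by side for legibility. On the left the L6-WT sheet is lowest for all 4 genes, at -0.97 for Tgfb3, and on the right the L6-HGF monolayer is lowest, at -0.46 for Tgfb2.

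Of the receptors, Tgfbr1, the kinase that phosphorylates Smad2 and Smad3, was 0.26 in the L6-HGF sheet and 0.04 in the L6-WT sheet, and -0.12 in the L6-HGF monolayer and -0.04 in the L6-WT monolayer, as the mean of 2 probe sets. The order of the arrays was that of Tgfb2, within a narrower span of 0.39 (log2). Its sheet difference was 0.39 in L6-HGF and 0.08 in L6-WT, and the probe sets gave 0.36 and 0.41 in L6-HGF but -0.05 and 0.20 in L6-WT. The hHGF effect on Tgfbr1 was 0.23 in sheets and -0.09 in monolayers. Tgfbr3, or betaglycan, is a coreceptor that presents ligand, Tgfb2 above all, to the signalling receptors. Its mean lay at -0.02 in the L6-HGF sheet and 0.13 in the L6-WT sheet, and at -0.12 in the L6-HGF monolayer and -0.01 in the L6-WT monolayer. Its 2 probe sets gave an hHGF effect of -0.02 and -0.29 in sheets, and disagreed in sign in monolayers, at 0.10 and -0.32. For the sheet difference they gave 0.21 and -0.02 in L6-HGF, and 0.33 and -0.04 in L6-WT. Only for the hHGF effect in sheets did they share a sign, and their mean there, -0.16, was smaller in size than the control SD of 0.22. No direction can thus be given for Tgfbr3 as a gene.

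The latent binding proteins differed from each other. Ltbp1, which anchors the latent complex in the matrix, had -0.23 in the L6-HGF sheet and -0.23 in the L6-WT sheet, and 0.47 in the L6-HGF monolayer and 0.23 in the L6-WT monolayer. Both sheets lay below both monolayers and were alike, with an hHGF effect of -0.0072 in sheets, against 0.24 in monolayers. Ltbp1 was 1.63-fold lower in the sheet than in the monolayer of L6-HGF (log2 difference -0.70) and 1.37-fold lower in that of L6-WT (-0.45). The value in L6-WT was smaller in size than the largest bacterial control there, 0.49. Among the 9 genes, its values were nearest to those of Tgfb1, at a root mean square difference of 0.20. Ltbp2, a matrix protein of elastic fibres that does not bind latent TGF-beta, spanned 0.24 over the 4 arrays, with -0.04 in the L6-HGF sheet and 0.19 in the L6-WT sheet, and -0.02 in the L6-HGF monolayer and 0.02 in the L6-WT monolayer. Its differences reached -0.24 for the hHGF effect in sheets, close to the SD of the controls.

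Tgfbi, a secreted matrix protein named for its induction by TGF-beta, was low on a single array. It had -0.68 in the L6-HGF sheet and 0.24 in the L6-WT sheet, and -0.12 in the L6-HGF monolayer and 0.12 in the L6-WT monolayer. With hHGF, Tgfbi was 1.89-fold lower in sheets (log2 difference -0.92), where 1.81% of genes had a larger difference, and the log2 difference in monolayers was -0.24. Between sheet and monolayer it was -0.56 in L6-HGF and 0.12 in L6-WT. The hHGF effect in sheets minus that in monolayers was thus -0.68, a gap exceeded in size by 4.83% of genes. For the same quantity the largest bacterial control reached 0.69 in size. Tgif1, a homeodomain protein that represses Smad targets, was split by format, with 0.33 in the L6-HGF sheet and 0.21 in the L6-WT sheet, and -0.21 in the L6-HGF monolayer and -0.23 in the L6-WT monolayer. It was 1.46-fold higher in the sheet of L6-HGF and 1.35-fold higher in that of L6-WT than in the monolayers. A larger difference was seen for 12.8% of genes in L6-HGF and 15.1% in L6-WT. The log2 difference in L6-WT, 0.44, was smaller than the largest bacterial control there, 0.49 in size. The hHGF effect on Tgif1 was 0.12 in sheets and 0.02 in monolayers.

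Counted together, none of the 9 genes passed 2-fold between L6-HGF and L6-WT, in sheets, where 1.44% of all genes did, or in monolayers, where 0.535% did. Between sheet and monolayer, Tgfb3 was the 1 gene of 9 past 2-fold, in L6-HGF, where 3.75% of all genes passed, and in L6-WT, where 1.21% passed. The median log2 difference of the 9 genes was -0.0072 for the hHGF effect in sheets and -0.03 in monolayers, against -0.02 and 0.0016 over all genes. For sheet over monolayer it was -0.03 in L6-HGF and 0.12 in L6-WT, against 0.03 and 0.03. The median size of the difference, without its sign, was 0.55 for the sheet of L6-HGF against 0.20 over all genes, and 0.18 for that of L6-WT against 0.19. Taking the hHGF effect in sheets minus that in monolayers, none of the 9 passed 2-fold, against 1.9% of all genes (1.43% in the lower direction).

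With 1.5-fold as the threshold, Tgfb3 and Tgfbi passed for the hHGF effect in sheets, 2 of 9 genes against 5.78% of all genes, and Tgfb3 in monolayers, 1 of 9 against 2.51%. Between sheet and monolayer, Tgfb3 and Ltbp1, both lower, and Tgfb2, higher, passed in L6-HGF, 3 of 9 against 11.3%, and Tgfb3 in L6-WT, 1 of 9 against 7.13%. Tgfbi passed for the change of the hHGF effect with format, 1 of 9 against 7.26%. Each of these counts rests on 1 array per condition and carries no error.

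A limma model over all 4 arrays, with 1 term for hHGF and 1 for format, leaves 1 residual degree of freedom, in which noise of the arrays and a real dependence of one factor on the other are mixed. For neither term did any probe set reach an adjusted p below 0.05 (0 of 31042), while 2977 probe sets (9.59%) had an unadjusted p under 0.05 for hHGF and 6333 (20.4%) for the sheet. Of the 12 TGF-beta probe sets, 3 had an unadjusted p under 0.05 for hHGF, namely Tgfb3, Tgfbi and 1 of the 2 of Tgfbr3, and 3 for the sheet, namely Tgfb3, Ltbp1 and Tgif1. Tgfb3 had a common hHGF effect of 0.80 ± 0.10 (limma SE, log2; adjusted p = 0.505) and a common sheet effect of -1.09 ± 0.10 (adjusted p = 0.158). The common sheet effect was -0.58 ± 0.12 for Ltbp1 (limma adjusted p = 0.172) and 0.49 ± 0.11 for Tgif1 (limma adjusted p = 0.174). The common hHGF effect on Tgfbi was -0.58 ± 0.20 (limma adjusted p = 0.518).

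The rest of the pathway was read from 6 lists, with 74 of 83 genes on the arrays. Small proteoglycans of the matrix, most of which bind TGF-beta, differed between sheet and monolayer, where 3 of 5 were more than 2-fold higher in each cell line, against 1.17% of all genes in L6-HGF and 0.717% in L6-WT, with a median log2 difference of 1.04 in L6-HGF and 2.07 in L6-WT. Decorin (Dcn), which sequesters TGF-beta, was 5.24-fold higher in the sheet of L6-HGF and 10.3-fold higher in that of L6-WT. Aspn was 3.48-fold and Lum 2.06-fold higher in L6-HGF, and 5.33-fold and 4.20-fold higher in L6-WT. Fmod was 1.80-fold lower in the sheet of L6-HGF and 1.56-fold lower in that of L6-WT, and Bgn had a log2 difference of 0.40 in L6-HGF and -0.02 in L6-WT. For the hHGF effect the median of the list was -0.95 in sheets, with 4 of 5 below 0, and -0.41 in monolayers, with 3 of 5 below 0. With hHGF, Fmod was 3.28-fold lower in sheets, where 0.95% of all genes were lower by more than 2-fold, and 2.85-fold lower in monolayers, where 0.309% were. Aspn was 2.35-fold lower in sheets. Postn, a matrix protein induced by TGF-beta, was 7.16-fold higher in the sheet of L6-HGF and 5.64-fold higher in that of L6-WT, yet with hHGF 2.18-fold lower in sheets and 2.76-fold lower in monolayers.

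Over 22 TGF-beta responsive genes the median was -0.09 for the hHGF effect in sheets and -0.17 in monolayers, against -0.02 and 0.0016 over all genes. For sheet over monolayer it was 0.16 in L6-HGF and 0.02 in L6-WT, against 0.03 and 0.03. For the hHGF effect, Postn and Junb passed 2-fold, both lower, in sheets, 2 of 22 against 0.95% of all genes, and Postn in monolayers, 1 of 22 against 0.309%. Junb, an early response transcription factor, was 2.45-fold lower in L6-HGF sheets. Loxl2, which cross-links collagen, was 2.37-fold higher and Sphk1, a lipid kinase, 2.33-fold lower in the sheet than in the monolayer of L6-HGF. In L6-WT Junb was 2.96-fold higher in the sheet. With Postn, 2 of 22 were past 2-fold higher in the sheet of each cell line, against 1.17% of all genes in L6-HGF and 0.717% in L6-WT. Past 2-fold lower was 1 of 22 in L6-HGF, against 2.57%. The collagen genes Col1a1 and Col1a2 had an hHGF effect of -0.70 and -0.45 in sheets and of -0.27 and -0.17 in monolayers. Smooth muscle actin Acta2 and its companion Tagln had 0.96 and 0.85 in sheets and -0.17 and 0.06 in monolayers. Cnn1, another smooth muscle gene of this list, had only 0.04 in sheets and -0.08 in monolayers. Ccn2, a classical target of TGF-beta, had -0.40 in sheets and -0.07 in monolayers.

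Among 20 Smads and cofactors, none passed 2-fold for the hHGF effect in either format, where at the shares of all genes (1.44% in sheets and 0.535% in monolayers) fewer than 1 would. Skil, a feedback repressor of Smad signalling that TGF-beta induces, was the 1 gene past 2-fold between sheet and monolayer. It was 2.09-fold higher in L6-HGF, where 1.17% of all genes were higher by more than 2-fold, with a log2 difference of 0.09 in L6-WT. After quantile normalization its log2 difference in L6-HGF was 0.97, within 2-fold. Smad2 had -0.34 in L6-HGF and -0.29 in L6-WT for the sheet, Smad3 -0.69 and -0.89, and the shared partner Smad4 0.07 and 0.02. The inhibitory Smad7 had 0.0009 in the L6-HGF sheet and 0.04 in the L6-WT sheet, and 0.02 in the L6-HGF monolayer and -0.04 in the L6-WT monolayer. None of 6 coreceptors and related receptors passed 2-fold in any of the 4 comparisons, where 0.535% to 3.75% of all genes did. All 6 were below 0 for the hHGF effect in monolayers and 4 above 0 in sheets. The 6 values in monolayers were no larger in size than the largest bacterial control there, 0.353. Bambi, a pseudoreceptor that blocks signalling, had 0.38 in sheets and -0.35 in monolayers.

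Of 13 genes of the latent complex and its activation, Plau, the urokinase that generates plasmin, was the 1 gene past 2-fold. It was 3.36-fold lower in the sheet of L6-HGF and 2.13-fold lower in that of L6-WT, and with hHGF 2.03-fold lower in sheets. Of all genes, 2.57%, 0.492% and 0.95% were lower by more than 2-fold in these 3 comparisons. The other LTBP family members, Ltbp4 and Ltbp3, had an hHGF effect of -0.61 and -0.35 in sheets and of -0.92 and -0.66 in monolayers. The activin and myostatin branch held 8 genes. Follistatin (Fst), which binds activin and myostatin, was 3.94-fold lower in the sheet of L6-HGF and 3.35-fold lower in that of L6-WT. It was the 1 gene of 8 past 2-fold lower in each, against 2.57% and 0.492% of all genes. Inhbb, an activin subunit, was 2.37-fold higher in the sheet of L6-WT, 1 of 8 past 2-fold higher against 0.717% of all genes. Myostatin (Mstn) had a sheet difference of 0.05 in L6-HGF and 0.41 in L6-WT. Over all 74 genes, 6.76% (5 genes) passed 2-fold for the hHGF effect in sheets and 2.7% (2 genes) in monolayers, against 1.44% and 0.535% of all genes. For the sheet, 12.2% passed in L6-HGF and 10.8% in L6-WT, against 3.75% and 1.21%. The lists were chosen with earlier results of these data known, so that these shares are no independent result about the pathway.

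After quantile normalization of the centred values, Postn lay at -0.92 for the hHGF effect in monolayers, Plau at -0.64 for that in sheets and Sphk1 at -0.90 for the sheet in L6-HGF, all within 2-fold, as was Skil. Dcn, within 2-fold before, then passed it for the hHGF effect in sheets, at -1.20. In monolayers 2 of the 74 pathway genes still passed for the hHGF effect, with another gene in the place of Postn. Tgfb3 stayed past 2-fold in both sheet comparisons, at -1.13 in L6-HGF and -1.29 in L6-WT. Markers of muscle and of other cells also differed in these comparisons, and their part in them was not tested. For the hHGF effect, 8 fibroblast markers, of which Lum is also in the proteoglycan list, had a median of -0.60 in sheets and -0.36 in monolayers, with all 8 below 0 in sheets, and for the sheet a median of -0.05 in L6-HGF and 0.24 in L6-WT. Of these, 2 of 8 were past 2-fold lower with hHGF in each format, against 0.95% of all genes in sheets and 0.309% in monolayers. In the sheet of each cell line 2 of 8 were past 2-fold higher, against 1.17% in L6-HGF and 0.717% in L6-WT. In 9 of 11 listed muscle markers the median hHGF effect was -0.36 in sheets and -0.60 in monolayers, and 2 and 3 of them were past 2-fold lower, against 0.95% and 0.309% of all genes. Above 0 were 2 of the 9 in sheets and 1 in monolayers, with Des at 0.76 and 0.43. The median sheet difference of the muscle markers was -0.06 in L6-HGF and -0.28 in L6-WT. Endothelial and immune markers, 5 and 6 genes, lay within 2-fold in all 4 comparisons, where 0.535% to 3.75% of all genes passed it. Of 5 smooth muscle markers, among them Des again, 1 was past 2-fold, lower in the sheet of L6-HGF, against 2.57% of all genes.

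**Figure D4:**
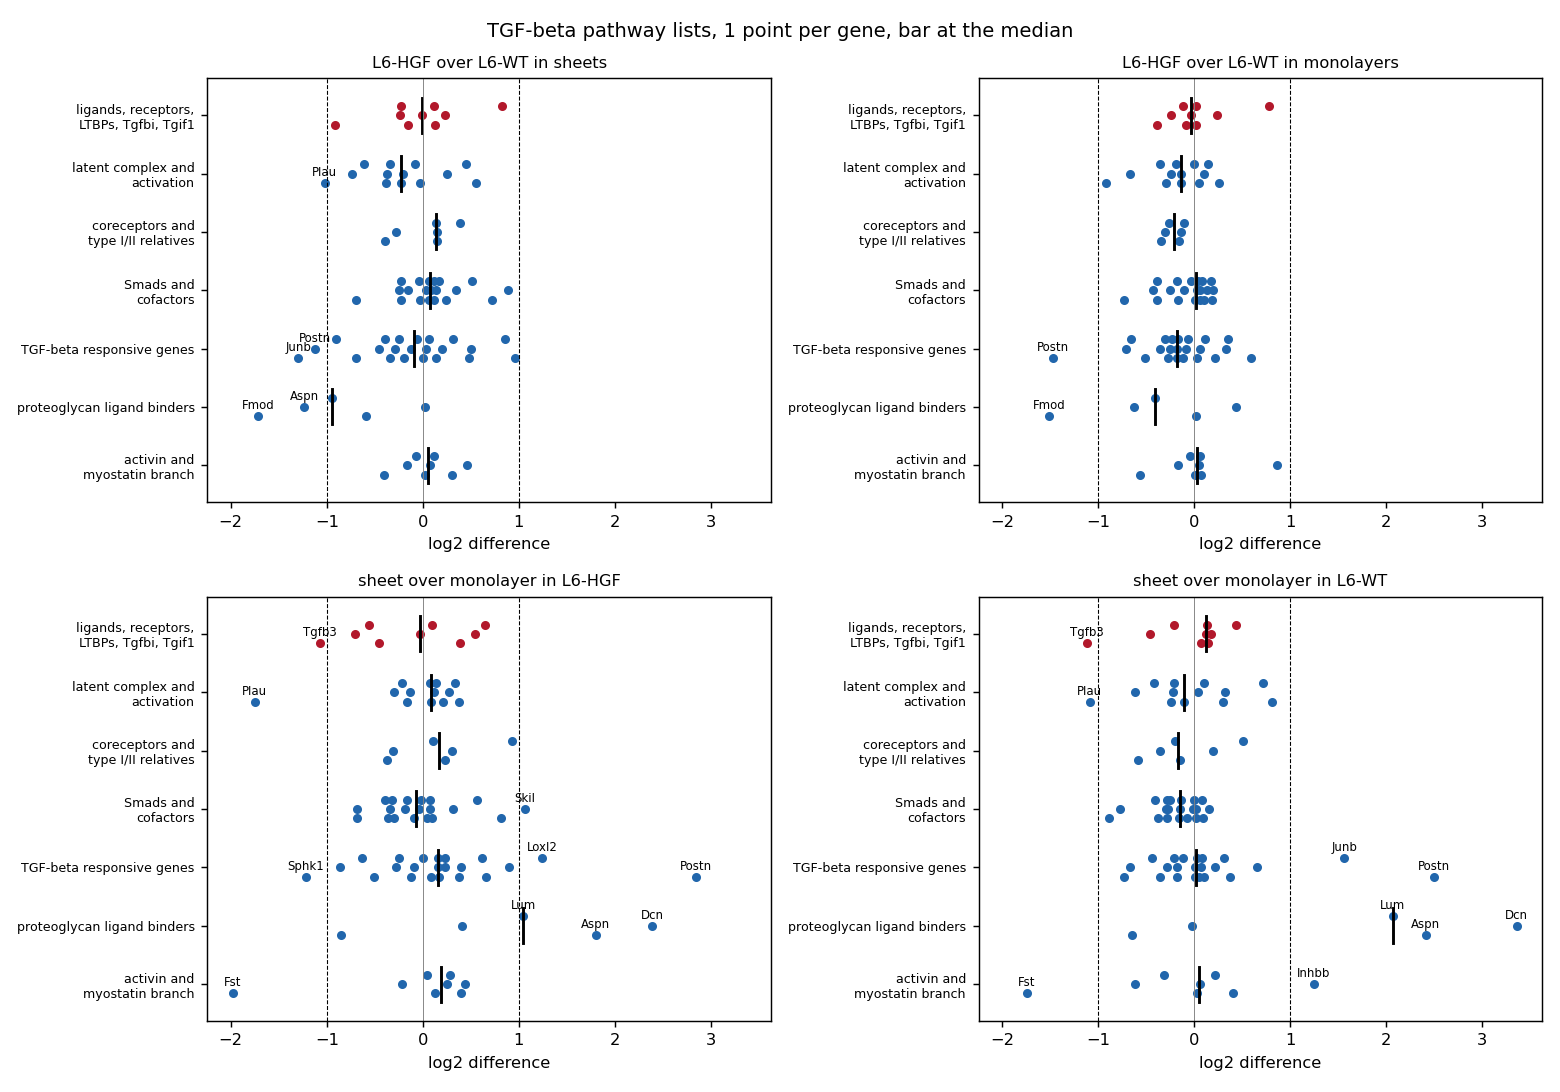
Log2 difference (horizontal axis) of the 9 TGF-beta genes in red and of 6 pathway lists in blue, with 1 point per gene, a black bar at the median of each list, dashed lines at 2-fold and names for genes past it, in the 4 comparisons named above the panels. Among the red points only Tgfb3 lies past a dashed line, in the 2 sheet over monolayer panels, whereas 3 of 5 proteoglycans lie beyond 1 there.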

How the data were processed

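RNA from 4 cultures of rat L6 myoblasts, 1 per condition, was hybridised to Affymetrix rat genome arrays. The authors normalized the arrays with RMA, named in the submitters' processing notes as well, and to median. The deposited values are log2, centred on the median of each probe set, so that levels are lost. The version of RMA and the chip definition were not given in the sources used here. Log2 differences were computed without 57 control probe sets. Of 31042 probe sets, 20826 had 1 gene symbol, 436 several and 9780 none. Entrez identifiers of 20758 matched the current rat table, with 0 symbols changed. A difference between 2 arrays has no test, and precision is limited by the number of arrays. An additive model over all 4 leaves 1 residual degree of freedom. limma 3.58.1 in R 4.3.3, with Benjamini-Hochberg adjustment over all probe sets, was tested on simulated data. Python 3.11.15, pandas 2.3.3, numpy 2.4.6 and matplotlib 3.10.9 served for the rest. The named genes were the 10 chosen genes, pathway genes past 2-fold, and for each ligand spanning at least 0.5 its 3 nearest genes. Other pathway genes given within 2-fold were picked after their values were seen. The genes and lists were chosen with earlier results of these data known. Quantile normalization, centring of arrays, other ways to join probe sets, a 1.5-fold threshold and a model with 1 term were tried as alternatives.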

Additional observations from a re-analysis of the deposited data

Results flagged for a closer look

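With 1 array per condition, an effect whose sign differs between the formats or between the cell lines was given a closer look, and none of these differences was tested. The hHGF effect had opposite signs in sheets and monolayers for Tgfb2 (sheets minus monolayers, 0.51 on the log2 scale), Tgfbr1 (0.31), Tgfb1 (-0.25) and Ltbp1 (-0.25). Of these, the value of Ltbp1 in sheets was -0.0072 and that of Tgfb1 in monolayers 0.02, both far within the spread of the bacterial controls, and only Tgfb2 exceeded 2 control SDs, at 2.61. The largest bacterial control reached 0.69 in size for the same quantity, more than the 0.51 of Tgfb2. The sheet difference had opposite signs in L6-HGF and L6-WT for Tgfbi (L6-HGF minus L6-WT, -0.68) and Ltbp2 (-0.20). Ltbp2 had -0.03 in L6-HGF and 0.18 in L6-WT, against control SDs of 0.16 and 0.18. Tgfbi in L6-WT, at 0.12, was also below the control SD there. Among pathway genes past 2-fold in any of the 4 comparisons, the hHGF effect changed sign for Junb (-1.41), Loxl2 (1.16), Lum (-1.03), Dcn (-0.97), Skil (0.97) and Fst (-0.23), again as sheets minus monolayers. With the values as deposited, only Junb of these passed 2-fold for the hHGF effect itself. In monolayers Junb (0.11), Dcn (0.02) and Fst (0.07) were below the control SD of 0.12. In sheets Fst (-0.16) was below the control SD of 0.22. After quantile normalization Fst had an hHGF effect of 0.28 in sheets, a change of sign.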

How the results depend on the processing

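No paired analysis was possible because each condition has 1 array and the labels give no replicate numbers, and no array could be left out of a comparison of 2 arrays. With a 1.5-fold threshold in place of 2-fold, 2 of the 9 genes passed for the hHGF effect in sheets (Tgfb3 and Tgfbi) and 1 in monolayers (Tgfb3), 3 passed for the sheet in L6-HGF (Tgfb3, Ltbp1 and Tgfb2) and 1 in L6-WT (Tgfb3), and 1 passed for the change of the hHGF effect with format (Tgfbi). Without probe sets of shared type, Tgfb2 is lost and the median of the other 8 genes for the sheet in L6-HGF was -0.24. Quantile normalization gave 55 probe sets at a limma adjusted p under 0.05 for the sheet effect, none of them of a TGF-beta gene, with Tgfb3 at an adjusted p of 0.0602. It moved the sheet difference of Tgfbi in L6-HGF to -0.39, and the hHGF effect of Ltbp1 in sheets to 0.0013. The probe set of Tgfbr3 with the widest range gave -0.32 for the hHGF effect in monolayers and -0.04 for the sheet in L6-WT. Tgfb3 has 1 probe set, so that of the alternatives only quantile normalization and centring of the arrays could move its log2 differences. Under these it kept its direction in each of the 4 comparisons, from -1.13 to -1.07 and from -1.29 to -1.11 for the sheet in L6-HGF and L6-WT, and from 0.82 to 0.99 and from 0.78 to 0.83 for the hHGF effect in sheets and monolayers. Alternatives for pathway genes were chosen after seeing the data, and no call past 2-fold changed its sign. A model with 1 term gave 0 probe sets at a limma adjusted p under 0.05 for either effect. Without adjustment 618 probe sets were higher and 538 lower for hHGF at this level, and 2233 and 3084 for the sheet. The effects on Tgfb3 were unchanged in the model with 1 term. Its limma SE was 0.51 for hHGF and 0.36 for the sheet, against 0.10 for each in the model with both terms. Without signal levels, dim probe sets cannot be told from bright ones.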
